A study of Homo sapiens with 10 samples.

Results

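NRF2, encoded by NFE2L2, and 8 of its target genes (GCLM, GCLC, NQO1, TXNRD1, SRXN1, OSGIN1, HMOX1 and AKR1B1) were followed in CH157-MN, a human meningioma cell line in long-established use. The 9 genes were selected by symbol among the 58735 genes of the deposited count table, and all 9 were measured and passed the filter on low counts. They were chosen with earlier results of these data known. Of these genes 4 were lower and 2 higher in treated cells by edgeR's test (10% and 10.8% of all genes tested were), while NFE2L2 itself, GCLC and SRXN1 did not pass the test. The control group was 5 libraries of CH157-MN cells given PBS (phosphate-buffered saline). The treated group was 5 libraries of the same line given 100 nM of a humanized SSTR2-MMAF ADC, an antibody-drug conjugate that brings the tubulin inhibitor monomethyl auristatin F to cells with the somatostatin receptor SSTR2, and harvested 3 days later. The labels give no harvest time for the PBS cells, and no group received the antibody or the payload alone. All 10 libraries come from 1 cell line. The labels do not say whether replicates were separate cultures, so p-values measure the spread between these libraries, which may be technical.

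NRF2 is a basic leucine zipper transcription factor that is controlled mainly at the level of its protein. The adaptor KEAP1 presents it to the CUL3 ubiquitin ligase for degradation, and oxidants or electrophiles that modify KEAP1 let NRF2 reach the nucleus. There it pairs with small MAF proteins on antioxidant response elements, whose core reads TGACNNNGC, and activates genes for glutathione synthesis, the thioredoxin system, quinone detoxification and heme breakdown. The level of NFE2L2 mRNA is therefore not a measure of NRF2 activity.

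Sequences before start sites are shown for the 3 genes with a core element or a related motif in the window searched. AKR1B1, which rose most, is shown too. The sequences come from RefSeq on GRCh38.p14, which matched 8 of the 9 genes with 11 start sites and had no entry for HMOX1. Each covers the 250 bases before a start site, 5′ to 3′ on the strand of the gene. Bases further away were not searched, so a gene without a match here may hold an element elsewhere. Capitals mark a match on either strand to TGACNNNGC, or to the AP-1 site TGACTCA. Read on the gene's strand, a match on the opposite strand appears as GCNNNGTCA for the core element and as TGAGTCA for the AP-1 site. The motifs share their leading letters, so a sequence can match both, but no window of these genes held such a match.
GCLM, chr1:93909431-93909680, minus strand: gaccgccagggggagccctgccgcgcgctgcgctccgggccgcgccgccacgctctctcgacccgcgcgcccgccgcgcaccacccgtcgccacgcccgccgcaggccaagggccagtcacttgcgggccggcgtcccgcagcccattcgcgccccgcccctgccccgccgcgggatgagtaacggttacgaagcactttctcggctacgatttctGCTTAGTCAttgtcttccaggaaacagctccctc
TXNRD1, upstream start, chr12:104215529-104215778, plus strand: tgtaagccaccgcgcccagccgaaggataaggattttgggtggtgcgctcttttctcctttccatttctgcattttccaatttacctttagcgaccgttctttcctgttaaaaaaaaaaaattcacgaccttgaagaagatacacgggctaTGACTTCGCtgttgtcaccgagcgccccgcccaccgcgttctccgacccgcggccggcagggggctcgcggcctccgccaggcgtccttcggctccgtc
TXNRD1, downstream start, chr12:104286782-104287031, plus strand: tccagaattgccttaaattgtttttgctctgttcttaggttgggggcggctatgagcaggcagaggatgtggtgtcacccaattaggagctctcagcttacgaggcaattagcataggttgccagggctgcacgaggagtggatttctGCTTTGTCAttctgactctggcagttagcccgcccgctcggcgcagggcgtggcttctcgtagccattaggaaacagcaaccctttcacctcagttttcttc
OSGIN1, chr16:83952990-83953239, plus strand: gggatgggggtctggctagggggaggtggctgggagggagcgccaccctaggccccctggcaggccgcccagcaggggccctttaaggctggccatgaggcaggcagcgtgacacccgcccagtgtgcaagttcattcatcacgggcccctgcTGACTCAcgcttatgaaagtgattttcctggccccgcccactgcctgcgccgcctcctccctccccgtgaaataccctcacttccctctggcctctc
AKR1B1, downstream start, chr7:134459101-134459350, minus strand: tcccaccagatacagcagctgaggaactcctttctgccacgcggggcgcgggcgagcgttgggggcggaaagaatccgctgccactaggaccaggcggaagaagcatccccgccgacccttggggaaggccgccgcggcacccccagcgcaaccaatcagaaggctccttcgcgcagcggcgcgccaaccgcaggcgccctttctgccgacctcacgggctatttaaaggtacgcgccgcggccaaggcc

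In GCLM the match lay 26 to 34 bases before the RefSeq start and read TGACTAAGC on the strand opposite to the gene. The gene spans given below come from the deposited coordinates instead. Some of these windows, that of GCLM among them, lie partly or wholly inside those spans. TXNRD1 had a match at each of its 2 start sites, TGACTTCGC on the gene's strand at 91 to 99 bases and TGACAAAGC on the other strand at 94 to 102 bases before the start. The other 8 start sites in the table had no TGACNNNGC in this window, and OSGIN1 had TGACTCA at 91 to 97 bases before its start. Of 35116 RefSeq start sites, 10.9% held TGACNNNGC and 4.2% held TGACTCA in a window of the same length, so a match is a description of the letters and not evidence of binding. Counts were summed over whole genes and do not tell which start site was used.

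Total counts ranged from 28262162 to 36463724 per library, and 3 counts, the upper limit that an observed 0 allows for counting error, corresponded to 0.0819 to 0.106 CPM (counts scaled by the TMM method to the same total in each library). Mitochondrial transcripts took 1.19% to 2.63% of counts. Of 10 meningioma and arachnoid markers, vimentin (VIM) was high, at 3395 CPM on average under PBS and 3535 CPM after ADC, and FOXC1 was detected at 19.7 and 17.4 CPM, but PGR and S100B had no count in any library. SSTR2, the target of the conjugate, had 3 to 22 counts per library and averaged 0.297 CPM under PBS and 0.429 CPM after ADC. The remaining markers of this list were low as well. MUC1 averaged 0.351 CPM under PBS and 0.701 CPM after ADC, and CLU 0.962 and 1.35 CPM. DSP, PTGDS and ALPL had at most 4, 1 and 8 counts in a library. The 5 markers of this list that were tested, VIM, FOXC1, SSTR2, MUC1 and CLU, were not called, and their groups overlapped. For SSTR2 the log2 fold change was 0.54 (SE 0.50, edgeR adjusted p = 0.50). The 12 leukocyte markers summed to 0.579 to 2.4 CPM under PBS and 2.1 to 3.01 CPM after ADC, with 6 of the 12 at 0 in all 10. The 7 endothelial markers summed to 1.48 to 3.0 CPM under PBS and 3.3 to 4.87 CPM after ADC, with EMCN at 0 throughout. Of the 3 endothelial markers tested, PECAM1 was called higher (0.576 CPM under PBS and 1.98 CPM after ADC, log2 fold change 1.77, SE 0.28, adjusted p = 2.4e-05), and KDR (-0.02, SE 0.29) and VWF (0.38, SE 0.56) were not called. The part of these low-level differences in the results below was not tested.

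The comparison asks how the antioxidant program differed between cells exposed to the conjugate and control cells. Across the 14504 genes tested with edgeR's quasi-likelihood test at an adjusted p of 0.05, 20.8% were called, 10.8% higher and 10% lower after ADC. Of the 9 genes 6 were called, 2 higher and 4 lower, and their median log2 fold change was -0.11 against -0.00 over all genes tested. PBS and ADC values were fully separated for 5 of the 9 genes, 4 lower and 1 higher, against 14.2% of all genes tested (6.95% lower and 7.29% higher). Because the 9 genes were chosen with earlier results of these data known, these shares describe the 9 genes only. They are not evidence about NRF2 targets in general. Scaled to library size alone, 63.3% of the called genes were higher instead of 51.8%, and the 9 genes still divided into 2 higher and 4 lower. HMOX1, 1 of the 2 called higher, lost its call in 5 fits that each left out a library. In bulk RNA, less transcript per cell and fewer expressing cells cannot be told apart.

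**Figure D1:**
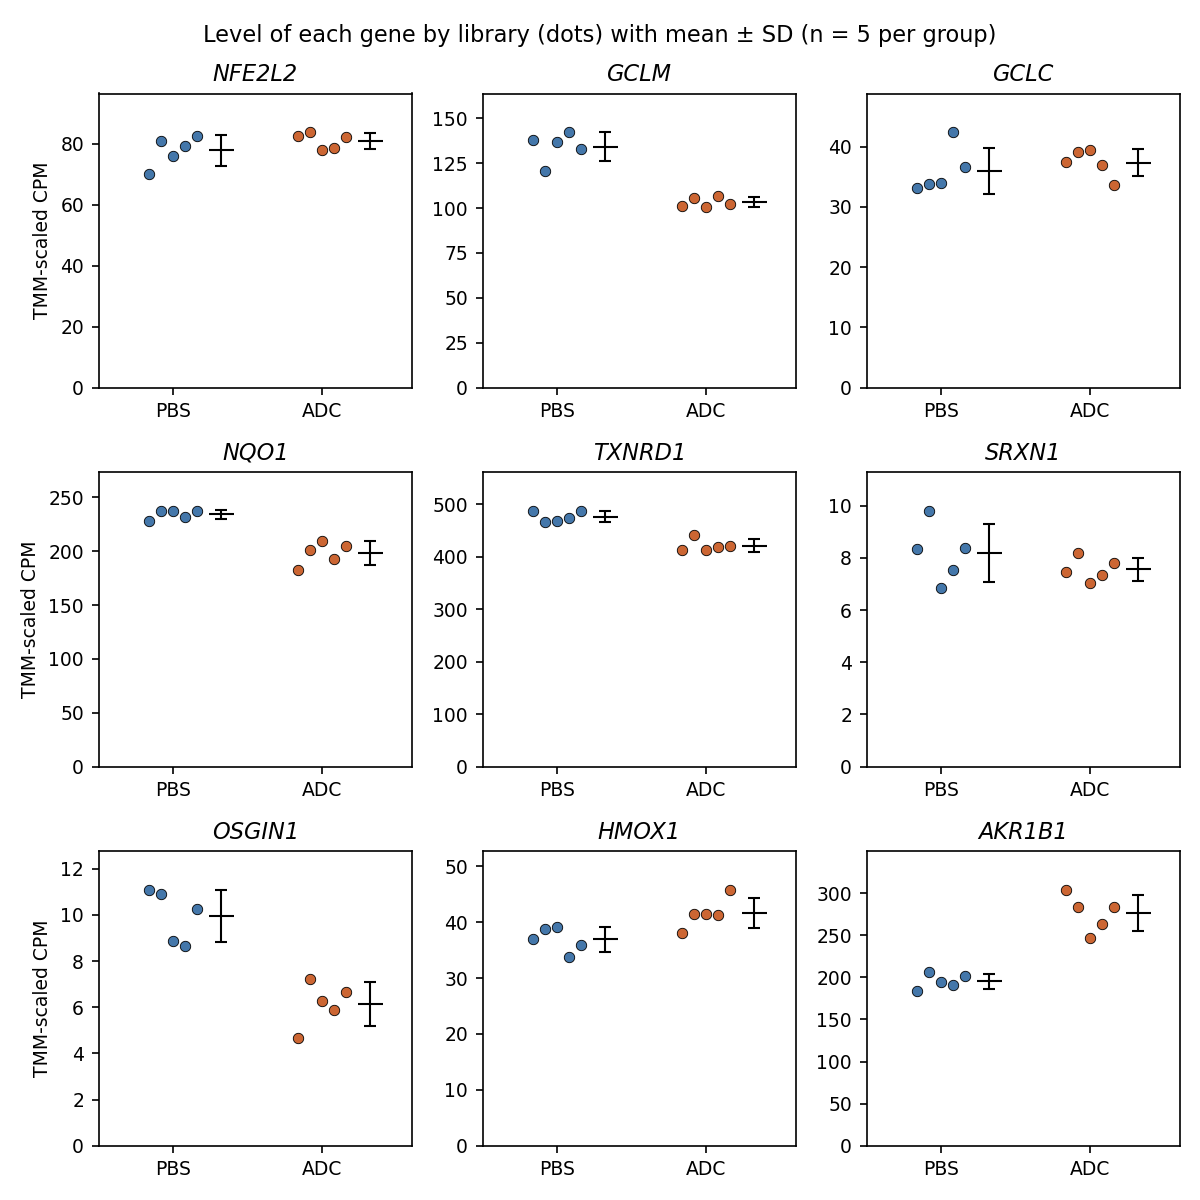
TMM-scaled CPM of each gene (y axis from 0) in the 5 PBS and 5 ADC libraries, 1 dot per library in replicate order, with the mean and SD beside them. The dots of GCLM, NQO1, TXNRD1 and OSGIN1 are all lower in ADC than in PBS, those of AKR1B1 are all higher, and the groups overlap for the other 4 genes.

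NFE2L2, the regulator, had 70.1, 81.1, 76.1, 79.5 and 82.5 CPM in PBS replicates 1 to 5 and 82.5, 84.0, 78.1, 78.5 and 82.4 CPM in ADC replicates 1 to 5. The groups overlapped, and PBS replicate 1 was the lowest of the 10. The log2 fold change, given throughout as ADC minus PBS, was 0.06 (SE 0.04, edgeR adjusted p = 0.38), so a difference of this size was not distinguishable from the spread between libraries. NFE2L2 (ENSG00000116044) lies on chromosome 2 from 177227595 to 177392697 on the minus strand (hg38). Of its exonic bases 17.6% are shared with a gene on the same strand, AC019080.1, which had 58 to 114 counts per library, so part of its reads could be assigned to either. On the other strand 4.08% overlap further genes, among them AGPS with 5336 to 7585 counts, and the strand setting of the counts is unknown.

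GCLM and GCLC encode the modifier and the catalytic subunit of glutamate-cysteine ligase, the enzyme that sets the rate of glutathione synthesis. GCLM had 138, 121, 137, 142 and 133 CPM in the PBS libraries and 101, 106, 100.4, 107 and 103 CPM in the ADC libraries. Every ADC value was below every PBS value, and the ADC libraries lay closer together (SD 2.84 against 8.29 CPM). GCLM fell by 0.38 in log2 units (SE 0.04, adjusted p = 3.2e-08), a change of -23.0%, and 14.9% of the genes tested changed by more. The gene (ENSG00000023909) lies on chromosome 1 from 93885205 to 93909456 on the minus strand and shares no exonic base with another gene. Its window above holds the match nearest to a RefSeq start site.

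GCLC, the catalytic subunit gene, was not called. It had 33.2, 33.9, 34.0, 42.5 and 36.7 CPM under PBS and 37.5, 39.1, 39.5, 37.0 and 33.7 CPM after ADC, with the highest value in PBS replicate 4 and an overlap of the groups. The log2 fold change was 0.05 (SE 0.06, adjusted p = 0.62). The ratio of the 2 subunits within a library needs no scaling between libraries. The log2 ratio of GCLM to GCLC counts was 2.06, 1.83, 2.01, 1.75 and 1.86 in PBS and 1.43, 1.44, 1.35, 1.53 and 1.6 in ADC libraries. All 5 ADC ratios were below all 5 PBS ratios. The means were 1.9 ± 0.13 and 1.47 ± 0.10 (SD, n = 5 per group), a difference of -0.43 or -25.8% (exact two-sided permutation test, p = 0.00794, the smallest that 252 splits can give). This test was chosen with earlier results of these data known. GCLM alone already separated the groups and GCLC did not, so the ratio is not independent of the GCLM result.

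**Figure D2:**
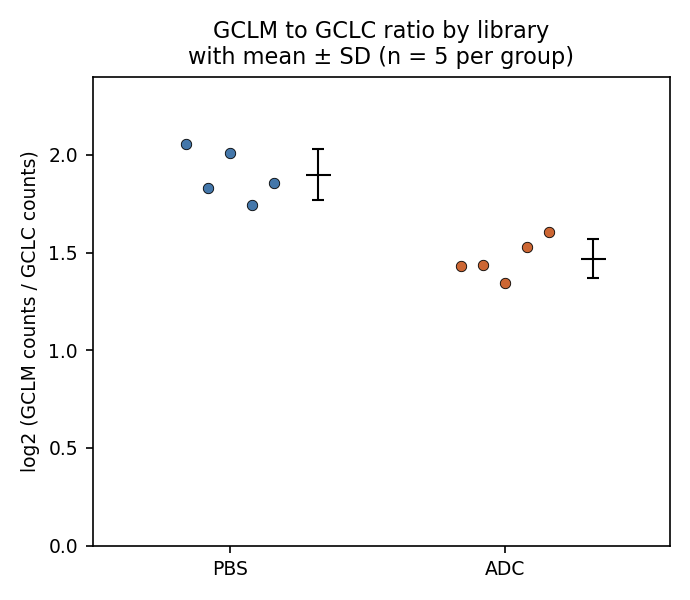
Log2 ratio of GCLM counts to GCLC counts (y axis) in each PBS and ADC library, 1 dot per library, with the mean and SD. The ADC libraries lie between 1.35 and 1.6, below the lowest PBS library at 1.75.

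NQO1 encodes a flavoprotein that reduces quinones by a transfer of 2 electrons and is a widely used readout of NRF2. It had 228, 237, 237, 232 and 237 CPM under PBS and 182, 201, 210, 193 and 205 CPM after ADC. The PBS values lay within a narrow band and all ADC values were below it, with ADC replicate 1 the lowest. NQO1 fell by 0.24 in log2 units (SE 0.04, adjusted p = 6.4e-06), a change of -15.4%. It lies on chromosome 16 from 69706996 to 69726951 on the minus strand, and 17.7% of its exonic bases overlap AC092115.2 on the other strand, which had no count in any library.

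TXNRD1 encodes cytosolic thioredoxin reductase, the selenoprotein that keeps thioredoxin reduced with electrons from NADPH. It had 487, 466, 468, 473 and 486 CPM under PBS and 413, 441, 413, 418 and 420.1 CPM after ADC. The groups did not overlap, and ADC replicate 2 was the highest treated library. TXNRD1 fell by 0.18 in log2 units (SE 0.03, adjusted p = 5.7e-05), a change of -11.6%, although 36.2% of the genes tested changed by more. It lies on chromosome 12 from 104215779 to 104350305 on the plus strand.

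SRXN1 encodes sulfiredoxin, which repairs overoxidized peroxiredoxins. It had 8.35, 9.8, 6.84, 7.53 and 8.38 CPM under PBS and 7.46, 8.19, 7.04, 7.35 and 7.81 CPM after ADC. All ADC values lay inside the PBS range, and the log2 fold change was -0.11 (SE 0.11, adjusted p = 0.51). SRXN1 has 201 to 331 counts per library, and 85% of its exonic bases are shared with AL121758.1 on the same strand, which had 0 to 3 counts. Whether reads in the shared part were left out as ambiguous was not tested.

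OSGIN1 encodes an oxidative stress induced growth inhibitor and changed most of the 9 genes. It had 11.1, 10.9, 8.88, 8.66 and 10.3 CPM under PBS and 4.65, 7.21, 6.28, 5.87 and 6.65 CPM after ADC. The highest ADC value was below the lowest PBS value, and ADC replicate 1 was again the lowest treated library. OSGIN1 fell by 0.70 in log2 units (SE 0.12, adjusted p = 5.0e-05), a change of -38.5%, and 4.92% of the genes tested changed by more. It lies on chromosome 16 from 83948282 to 83966332 on the plus strand. Of its exonic bases 13.9% are shared with AC009119.2, which had 0 to 2 counts.

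HMOX1 encodes heme oxygenase 1, which opens the heme ring and releases iron, carbon monoxide and biliverdin. It is held down by the repressor BACH1, which competes with NRF2 for the same elements. HMOX1 had 37.0, 38.8, 39.1, 33.8 and 35.9 CPM under PBS and 38.1, 41.5, 41.4, 41.3 and 45.8 CPM after ADC. The groups overlapped only in ADC replicate 1, which lay below PBS replicates 2 and 3. HMOX1 rose by 0.17 (SE 0.06, adjusted p = 0.031), a change of 12.6%. The call ended without PBS replicate 1 (adjusted p = 0.055), PBS replicate 4 (0.095), PBS replicate 5 (0.0741), ADC replicate 3 (0.051) or ADC replicate 5 (0.096), which leaves AKR1B1 as the 1 gene called higher. HMOX1 lies on chromosome 22 from 35380361 to 35394214 on the plus strand.

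AKR1B1 encodes aldose reductase, an aldo-keto reductase that reduces aldehydes and turns glucose into sorbitol. It had 183, 206, 195, 191 and 202 CPM under PBS and 304, 284, 247, 264 and 284 CPM after ADC. All ADC values were above all PBS values, and ADC replicate 1, which had the lowest NQO1 and OSGIN1 of the treated libraries, had the highest AKR1B1. AKR1B1 rose by 0.50 (SE 0.04, adjusted p = 2.0e-10), a change of 41.6%, and 9.51% of the genes tested changed by more. It lies on chromosome 7 from 134442350 to 134459284 on the minus strand and shares no exonic base with another gene. Its close paralog AKR1B10, an NRF2 target in human cells, stayed at 0 to 8 counts and did not pass the filter.

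**Figure D3:**
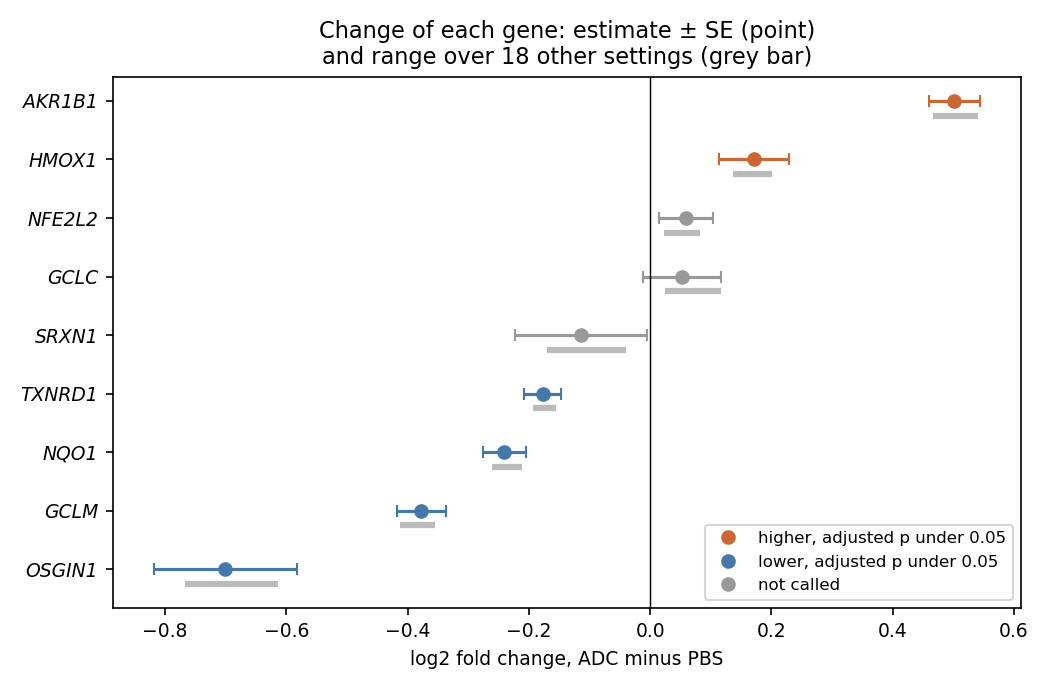
Log2 fold change of each gene, ADC minus PBS, with its SE (points) and the range over 18 other settings of test, scaling, filter and libraries (grey bars). Points run from -0.70 for OSGIN1 to 0.50 for AKR1B1, and no grey bar crosses 0.

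Levels of different genes were compared after division by the deposited gene length, which equals the union of the gene's annotated exons and can exceed the length of the transcript in use. On this scale, CPM per kilobase, NQO1 (72.0 ± 1.3) and TXNRD1 (71.0 ± 1.5) were the highest in PBS libraries (SD, n = 5) and overlapped each other. AKR1B1 (53.4 ± 2.4), GCLM (24.8 ± 1.5), HMOX1 (15.4 ± 0.9), NFE2L2 (13.0 ± 0.8) and GCLC (4.17 ± 0.44) followed without overlap between neighbours. SRXN1 (3.03 ± 0.41) and OSGIN1 (2.88 ± 0.33) were lowest and overlapped. Reads in the 85% of exonic bases that SRXN1 shares with AL121758.1 may have been left out. The level of SRXN1 would then be understated and its place in the order uncertain, which was not tested. In ADC libraries AKR1B1 led at 75.6 ± 5.9, above TXNRD1 at 62.8 ± 1.8 and NQO1 at 60.9 ± 3.3, the last 2 overlapping. GCLM (19.1 ± 0.5) and HMOX1 (17.3 ± 1.1) overlapped in ADC, as they did not in PBS, and OSGIN1 (1.77 ± 0.28) no longer overlapped SRXN1 (2.81 ± 0.16).

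**Figure D4:**
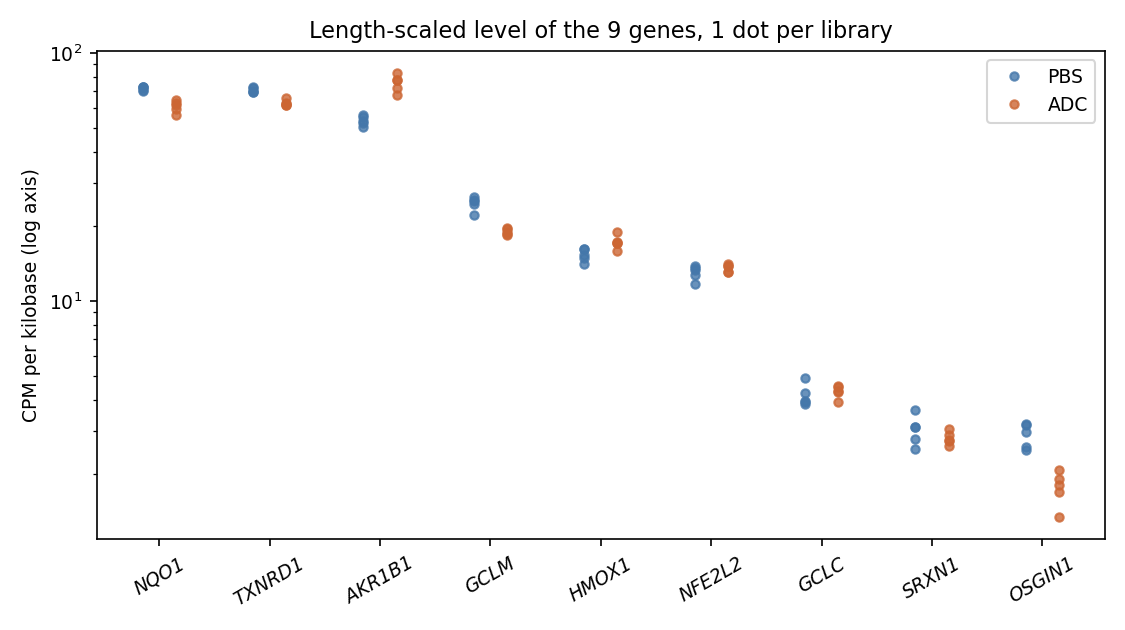
Length-scaled level of the 9 genes (CPM per kilobase, log axis) in each PBS and ADC library, 1 dot per library, ordered by the PBS mean. AKR1B1 stands below NQO1 and TXNRD1 in PBS at 53.4 and leads in ADC at 75.6. OSGIN1 has the lowest mean in both groups. The place of SRXN1 is uncertain, since most of its exonic bases are shared with another gene.

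The genes with the pattern most like OSGIN1 and AKR1B1, which of the 9 genes had the largest called change in each direction, were those with the smallest root-mean-square difference in centred log2 CPM over the 10 libraries. For OSGIN1 these were the inhibitor of differentiation ID1 (0.14), the matrix proteoglycan gene PRELP (0.15) and the alpha-tubulin gene TUBA4A (0.15), among 9628 protein-coding genes of at least 5 CPM. For AKR1B1 they were the tetraspanin gene CD82 (0.05), the troponin gene TNNT1 (0.06) and the collagen VI chain gene COL6A1 (0.06). OSGIN1 and AKR1B1 themselves spread by 0.40 and 0.26 around their own means on this measure. Centring was over all 10 libraries, so the measure includes the step between groups and does not show co-variation within a group. Log2 fold changes were -0.74 for ID1, -0.62 for PRELP and -0.57 for TUBA4A. They were 0.47 for CD82, 0.50 for TNNT1 and 0.42 for COL6A1.

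Of 12 tested genes that control or assist NRF2, 1 was higher, 1 lower and 10 not called, close to the share over all genes tested (10.8% higher and 10% lower). BACH1, the repressor of HMOX1, rose by 0.24 (SE 0.04, adjusted p = 0.00017). Its means were 96.2 ± 6.1 CPM under PBS and 114 ± 5.7 CPM after ADC (SD, n = 5). BTRC, a receptor of the ubiquitin ligase that degrades NRF2 independently of KEAP1, fell by 0.20 (SE 0.07, adjusted p = 0.029). The call of BTRC ended with library size as the scale (adjusted p = 0.061) and without PBS replicates 1, 3 or 5 or ADC replicates 3 or 4 (adjusted p of 0.063 to 0.11). The autophagy receptor SQSTM1 and the related factor NFE2L1 had log2 fold changes of -0.05 (SE 0.03) and 0.02 (SE 0.03) and were not called. Of the exonic bases of SQSTM1, 22% overlap MGAT4B and MRNIP on the other strand. The median of the list was -0.04.

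Of 28 other NRF2 targets tested, 2 were higher, 6 lower and 20 not called, with a median of -0.05, where 10.8% of all genes tested were higher and 10% lower. GSR, the reductase that regenerates glutathione, fell by 0.28 (SE 0.04, adjusted p = 2.5e-05) and the ferritin light chain gene FTL by 0.19 (SE 0.03, adjusted p = 9.6e-05). SLC7A11, the cystine transporter that supplies glutathione synthesis, fell by 0.28 (SE 0.06, adjusted p = 0.00055). PIR, which encodes pirin and was singled out after its value was seen, fell most among the called genes of this list, by 0.62 (SE 0.16, adjusted p = 0.0050). Its level went from 4.47 ± 0.90 to 2.91 ± 0.20 CPM. The transporter ABCC1 and the reductase PTGR1 rose, by 0.24 (SE 0.05) and 0.13 (SE 0.04). The pentose phosphate enzyme TKT was not called (-0.06, SE 0.03). FTL has processed pseudogenes, with which reads can be shared.

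**Figure D5:**
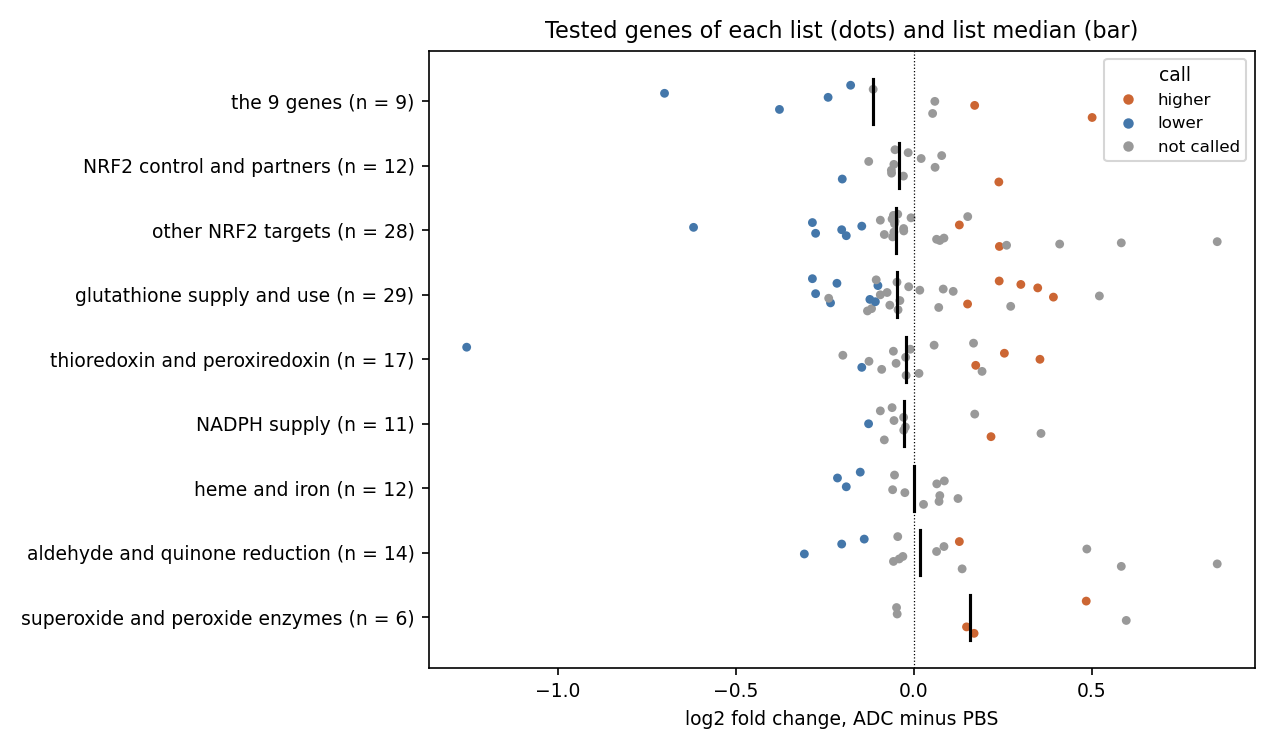
Log2 fold change of every tested gene in each list (dots, x axis), ADC minus PBS, coloured by call, with the list median as a bar. List medians lie between -0.11 for the 9 genes and 0.16 for the superoxide and peroxide enzymes.

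Among 29 tested genes that supply or use glutathione, 5 rose, 7 fell and 17 did not pass, with a median of -0.05. Over all genes tested, 10.8% were higher and 10% lower. GPX4, which reduces lipid peroxides, rose by 0.39 (SE 0.05, adjusted p = 2.8e-07). Its level went from 103 ± 6.6 to 135 ± 10.9 CPM, and the microsomal transferase MGST3 rose by 0.24 (SE 0.06). GSTM4 (0.35), HAGH (0.30) and GLRX (0.15) also rose. GSTM4 belongs to a cluster of similar genes that can share reads. The calls ended in single leave-one-out fits for GSTM4 (without ADC replicate 5, adjusted p = 0.062), HAGH (without PBS replicate 1 or ADC replicates 4 or 5, adjusted p of 0.055 to 0.067) and GLRX (without PBS replicates 1, 3 or 5 or ADC replicates 1, 2 or 5, adjusted p of 0.055 to 0.092). The list then held 3 higher genes without PBS replicate 1 and 2 without ADC replicate 5. GSR, SLC7A11 and MGST1 (-0.22, SE 0.04) led the members that fell, of which 4 were called with library size as the scale or when PBS replicate 2 or ADC replicates 1 or 4 were left out.

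The thioredoxin and peroxiredoxin list had 17 tested genes and a median of -0.02, and 3 rose, 2 fell and 12 did not pass, beside 20.8% called over all genes tested. The thioredoxin-binding arrestin TXNIP moved most, with 20.2 ± 0.85 CPM under PBS and 8.44 ± 0.99 CPM after ADC, a log2 fold change of -1.26 (SE 0.09, adjusted p = 3.2e-12). PRDX1, a cytosolic peroxiredoxin, fell by 0.15 (SE 0.04, adjusted p = 0.0031), while PRDX5 (0.35, SE 0.05), PRDX2 (0.17, SE 0.05) and the stress-induced SESN2 (0.25, SE 0.07) rose. Of the exonic bases of PRDX1, 24.9% overlap MMACHC on the other strand, and of those of PRDX2, 14.1% overlap AC018761.2 there. TXN, the substrate of TXNRD1, was not called (-0.06, SE 0.03, adjusted p = 0.26).

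Among 11 genes of NADPH supply, the isocitrate dehydrogenase IDH1 rose by 0.22 (SE 0.05, adjusted p = 0.00078) and the mitochondrial folate enzyme MTHFD2 fell by 0.13 (SE 0.03, adjusted p = 0.0060). The other 9 were not called, and the median was -0.03. Of the exonic bases of MTHFD2, 33.2% overlap AC006030.1 and SLC4A5 on the other strand. The called share of this list is close to the 20.8% of all genes tested. The block by replicate number or the fit without ADC replicate 5 called 2 lower, and the fit without ADC replicate 2 called 2 higher. Of 12 tested heme and iron genes 0 were higher, 3 lower and 9 not called, where 10.8% of all genes tested were higher and 10% lower. FTL, the transferrin receptor TFRC (-0.15, SE 0.03, adjusted p = 0.00025) and the P450 reductase POR (-0.21, SE 0.05, adjusted p = 0.0014) fell. The median of this list was 0.00.

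Of 14 tested genes of aldehyde and quinone reduction 1 rose, 3 fell and 10 were not called, where 10.8% of all genes tested were higher and 10% lower. PTGR1 rose, and ALDH3A2 (-0.31, SE 0.05, adjusted p = 7.8e-06), the paralog of NQO1 named NQO2 (-0.20, SE 0.05, adjusted p = 0.0033) and sorbitol dehydrogenase SORD (-0.14, SE 0.04, adjusted p = 0.012) fell. SORD acts on the sorbitol that AKR1B1 makes. The aldehyde reductase AKR1A1 was not called (0.14, SE 0.05, adjusted p = 0.055) but passed under 6 alternatives, by which this list had 2 higher genes, or 3 with DESeq2, and the median was 0.02. Of 6 superoxide and peroxide enzymes 3 rose and 3 were not called, beside 10.8% higher over all genes tested. The mitochondrial dismutase SOD2 rose by 0.49 (SE 0.04, adjusted p = 7.1e-12). Its level went from 117 ± 4.5 to 163 ± 2.4 CPM. A second entry named SOD2 on the same strand shares 5.12% of the exonic bases of this gene. Catalase (CAT) rose by 0.17 (SE 0.04, adjusted p = 0.0062) and CYBA by 0.15 (SE 0.05, adjusted p = 0.049). The call of CYBA ended under limma-voom (adjusted p = 0.068) and in 7 of 10 fits that left out a library. SOD1 was not called (-0.05, SE 0.03).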

How the data were processed

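Poly(A) RNA sequencing libraries of CH157-MN cells were prepared with random hexamers, and the labels' protocols name both a stranded and an unstranded method. The authors deposited 1 table of whole-number counts per gene, not normalised, with gene lengths in bases. Per the submitters' processing notes HISAT2, HISAT and TopHat2 were named without a role, with the build hg38. Neither the counting tool nor the strand setting or annotation used is given in the sources used here. The 58735 gene identifiers, positions and lengths matched GENCODE release 29, from which exon overlap was taken.

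Among counts of 2 to 21, even numbers made up 65.4% to 67.3%, so both mates of a pair may have been counted. An alternative fit used halved counts. All library pairs of 1 group were further apart than counting noise (chi-square over its degrees of freedom, 5.18 to 16.5), so none was treated as a repeat.

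Groups came from the treatment labels. The test was edgeR 4.0.16 in R 4.3.3 (TMM factors, filterByExpr with minimum count 10 and minimum total count 15, quasi-likelihood, two-sided, Benjamini-Hochberg over 14504 genes, threshold 0.05). SE was taken as log2 fold change over root F, without sign. The fit was tested on simulated data. Alternatives were DESeq2 1.42.0, limma-voom (limma 3.58.1), other scalings and filters, halved counts, the replicate number as a block and each library left out. The 9 genes, the pathway lists and the tests were chosen with earlier results of these data known. From each list the text names up to 3 called genes in each direction with the smallest adjusted p (all of them where 5 or fewer were called) and up to 2 of the most abundant genes not called. Lists overlap in part.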

Additional observations from a re-analysis of the deposited data

Results flagged for a closer look

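Within each group of 5 libraries, the 9 genes and the GCLM to GCLC ratio were checked for a library far from the others, 20 groups of values in all, of which chance flags about 1 in 20. TXNRD1 in ADC replicate 2 was the 1 value that stood apart, at 441 CPM, while the other 4 ADC libraries had 413, 413, 418 and 420.1 CPM. Without this library TXNRD1 fell by 0.19 on the log2 scale (adjusted p = 4.4e-05 by edgeR).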

How the results depend on the processing

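Of the 9 genes, 8 kept their direction and their side of the threshold under all 18 alternatives, and HMOX1 kept its direction but lost its call without any of 5 single libraries. The count of the 9 genes called was 6 under every test, scaling and filter and ranged from 5 to 6 when a library was left out. Over all genes, 3018 were called, 3362 with DESeq2 and 2491 to 2980 without 1 library. With library size as the scale, 1835 genes were higher and 1063 lower, where TMM gave 1562 and 1456, while the 9 genes kept 2 higher and 4 lower. Same-numbered libraries did not vary together (correlations of -0.01 to 0.03, and 0 libraries correlated best with their own number), so the numbers were not taken as pairs. With the replicate number as a block 3152 genes were called. For the ratio of GCLM to GCLC, the difference with the block was -0.43 at p = 0.0625 (exact sign-flip test), the smallest that 5 pairs can give, and it ranged from -0.47 to -0.39 without 1 library. GSTO1, which was not called (log2 fold change -0.0142), changed sign with library size as the scale (0.00806), and ranged from -0.0317 to 0.0160 without 1 library, above 0 without PBS replicate 2 or ADC replicate 1. AKR1A1 was called under 6 alternatives (adjusted p from 0.017) and GLO1 with DESeq2 (0.020) and limma-voom (0.049).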
